A study of Homo sapiens with 12 samples.

Results

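The comparison set 3 libraries of PRKCI_KD, H1299 cells in which PRKCI was silenced, against 3 libraries of NT1, the non-targeting control that was sequenced beside them. H1299 is a human non-small cell lung cancer line, and the labels give all 6 libraries as tumour cells cultured as spheroids, so both groups share the line, the spheroid culture and a lentiviral short hairpin RNA, directed at PRKCI in one group and at no target in the other. A gene entered the comparison when its name occurred once in the deposited table and its level reached 0.5 RPKM (reads per kilobase of gene, scaled to the reads of the library) in at least 3 of these 6 libraries. Of 64253 entries in the table, 57162 had a single name, and 18307 of those passed the level rule. The members nearest to that limit were BDH2P1, on the inside, whose library of rank 3 was at 0.5001 RPKM, and RP11-126L15.4, on the outside, at 0.4998 RPKM. Because a gene could enter through a single group, 191 genes reached the limit in the 3 NT1 libraries and in no PRKCI_KD library, and 233 the other way round. The labels do not give the number or the sequence of the hairpins, nor whether the libraries came from separate cultures or clones, so an off-target effect of a hairpin cannot be told apart from the loss of PRKCI, and p-values measure the spread between these libraries, which may be technical.

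The product of PRKCI is the atypical protein kinase C iota, a serine/threonine kinase that, unlike the conventional isozymes, needs neither calcium nor diacylglycerol. It binds the scaffold PAR6 and, through it, the small GTPase CDC42 and the scaffold PAR3, in the complex that sets apical-basal polarity in epithelia. In lung cancer PRKCI is known as an oncogene that is often gained in copy number, and its product is studied for its part in the growth of tumour-initiating cells in spheroid culture.

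The target was lower in each knockdown library. PRKCI lay at 13.8, 14.3 and 16.4 RPKM in NT1 and 2.43, 2.58 and 2.49 RPKM in PRKCI_KD, so that the groups stood far apart and the knockdown libraries were nearly alike. The fall was -2.18 on the scale of log2(RPKM + 1), on which all changes below are given (SE 0.08, limma, adjusted p = 5.55e-06), and the mean RPKM of NT1 was 5.94 times that of PRKCI_KD. PRKCZ, the other atypical isozyme, lay at 5.19 and 4.94 RPKM (-0.06, adjusted p = 0.615). Of the line's markers, vimentin (VIM, means of 598 and 453 RPKM), the keratins KRT8 (101 and 108 RPKM) and KRT18 (108 and 136 RPKM) and N-cadherin (CDH2, 12.8 and 11.4 RPKM) were present, and E-cadherin (CDH1) was below the level rule. Of 9 immune markers only CD68 and ITGAM, of 8 fibroblast markers only ACTA2 and of 6 endothelial markers none passed the level rule, and none of those 3 differed at an adjusted p under 0.05.

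The response was broad and mostly of moderate size. At an adjusted p under 0.05, the threshold of every call below, 2916 genes were higher in PRKCI_KD (15.9% of those tested) and 4426 were lower (24.2%), 7342 in all (40.1%). At least 2-fold on the same scale, 241 were higher (1.32%) and 157 lower (0.858%), 398 in all (2.17%). The PRKCI_KD libraries all lay above the NT1 libraries for 3915 genes (21.4%) and all below them for 5740 (31.4%). These shares are the background against which the counts of each gene list stand, and the median change over all genes was -0.05. Scaling moved the balance of directions: of all calls 39.7% were higher as deposited, 47.2% after quantile normalization and 50.5% after median-of-ratios scaling, which shifted the median by less than 0.1. The first principal component of the 6 libraries took 72.7% of the variance and separated the groups. The second, with 15.2%, fell with the replicate number in both groups. It stood at 14.5, 6 and -19.9 in NT1 and at 12.2, -4.6 and -8.1 in PRKCI_KD. Denominators recovered from the RPKM values were 87419422 to 118961859 reads, and 83.7% of the genes tested had at least 100 reads in every library.

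**Figure D1:**
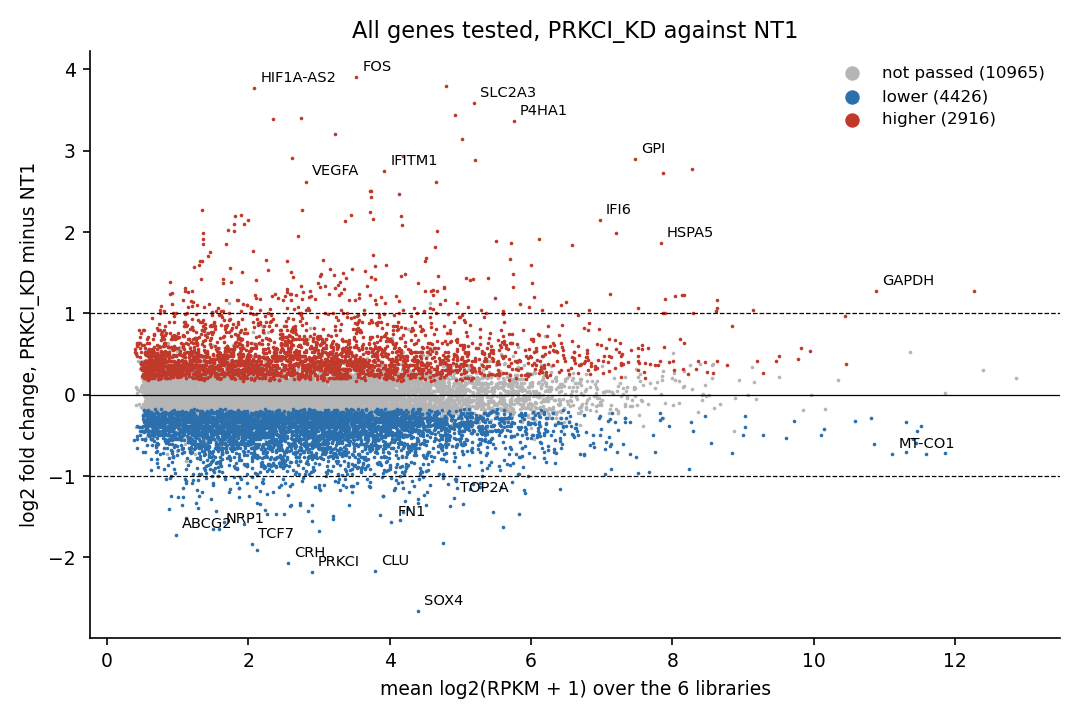
Each point is a gene of the 18307 tested, with its mean log2(RPKM + 1) over the 6 libraries on the x axis and its log2 fold change, PRKCI_KD minus NT1, on the y axis; red points rose, blue points fell and grey points did not pass. The dashed lines mark a 2-fold change, beyond which 241 genes lie above and 157 below, with FOS (3.90) and SOX4 (-2.66) at the ends.

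Several of the gene groups described next are known for short promoter sequences shared by their members, and some of these are shown here from RefSeq (GRCh38.p14). Each line gives the 250 bases before a gene's start, 5′ to 3′ on the gene's strand, with the matches to a motif in capitals. Searched on both strands were ACGTG and GCGTG, the core of the element bound by hypoxia-inducible factors; CCAAT and CCACG with 9 bases of any kind between them, the stress element of endoplasmic reticulum chaperones; GAAA and GAAA with 2 bases between them, the interferon-stimulated response element; TTTCCCGC, an E2F site; and TTTGAA, the cell cycle homology region of mitotic genes. The genes shown are, per group, among the changed members with the largest changes whose window holds the motif. ACGTG and the stress element share letters where CCACG is followed by T, so that a stretch can match both. The shares of windows given below count tested members whether changed or not. Because the lists hold genes known for such regulation, a high share follows in part from their choice, and no share was tested.
PFKFB4 (chr3:48556804-48557053, minus strand): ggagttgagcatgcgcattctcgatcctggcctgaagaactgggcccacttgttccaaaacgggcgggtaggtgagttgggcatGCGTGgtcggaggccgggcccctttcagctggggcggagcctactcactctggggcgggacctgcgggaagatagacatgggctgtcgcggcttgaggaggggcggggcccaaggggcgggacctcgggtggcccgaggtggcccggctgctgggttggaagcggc
BNIP3 (chr10:131981924-131982173, minus strand): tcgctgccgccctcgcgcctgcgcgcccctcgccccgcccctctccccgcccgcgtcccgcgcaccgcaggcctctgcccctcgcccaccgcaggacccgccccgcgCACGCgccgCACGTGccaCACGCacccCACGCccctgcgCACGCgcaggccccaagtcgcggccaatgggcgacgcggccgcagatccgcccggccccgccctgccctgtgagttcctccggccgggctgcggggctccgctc
HSPA5 (chr9:125241344-125241593, minus strand): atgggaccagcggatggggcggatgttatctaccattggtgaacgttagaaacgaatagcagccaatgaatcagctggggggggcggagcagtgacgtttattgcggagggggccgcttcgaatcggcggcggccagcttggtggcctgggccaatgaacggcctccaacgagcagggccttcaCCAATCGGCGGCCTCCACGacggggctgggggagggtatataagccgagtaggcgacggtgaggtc
HSP90B1 (chr12:103930160-103930409, plus strand): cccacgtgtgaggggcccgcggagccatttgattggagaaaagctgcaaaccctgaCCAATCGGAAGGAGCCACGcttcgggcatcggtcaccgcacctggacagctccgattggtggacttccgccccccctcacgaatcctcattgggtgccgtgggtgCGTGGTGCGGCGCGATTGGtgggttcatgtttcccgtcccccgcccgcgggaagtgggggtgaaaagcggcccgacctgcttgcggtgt
IFI6 (chr1:27672193-27672442, minus strand): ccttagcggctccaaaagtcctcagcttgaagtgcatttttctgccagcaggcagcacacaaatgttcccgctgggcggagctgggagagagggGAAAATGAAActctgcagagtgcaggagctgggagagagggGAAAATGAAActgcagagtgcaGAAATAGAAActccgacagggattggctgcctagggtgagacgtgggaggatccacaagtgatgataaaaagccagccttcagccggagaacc
GINS2 (chr16:85688955-85689204, minus strand): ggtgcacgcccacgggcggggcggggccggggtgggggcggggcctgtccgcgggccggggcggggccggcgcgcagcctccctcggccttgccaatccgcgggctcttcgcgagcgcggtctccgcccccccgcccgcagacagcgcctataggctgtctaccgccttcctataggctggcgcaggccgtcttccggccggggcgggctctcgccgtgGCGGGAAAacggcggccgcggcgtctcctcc
TOP2A (chr17:40417897-40418146, minus strand): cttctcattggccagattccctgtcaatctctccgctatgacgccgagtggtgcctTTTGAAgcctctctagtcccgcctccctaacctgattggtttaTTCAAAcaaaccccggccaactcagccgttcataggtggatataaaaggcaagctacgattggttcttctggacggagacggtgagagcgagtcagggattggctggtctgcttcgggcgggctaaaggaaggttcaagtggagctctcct

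Most genes of glucose uptake and glycolysis were higher in PRKCI_KD. Of 21 tested members 14 rose, 9 of them at least 2-fold, 2 fell and 5 did not pass, with a median change of 0.84. At the membrane, the transporter SLC2A1 rose from 7.77 ± 1.01 to 36.3 ± 3.07 RPKM (2.09; such pairs give the mean and its SD over 3 libraries a group), and SLC2A3 lay at 9.52, 9.37 and 9.92 RPKM in NT1 and 122, 131 and 123 RPKM in PRKCI_KD. All 3 knockdown values of SLC2A3 were more than 10 times every control value, a change of 3.58 (SE 0.06, adjusted p = 6.42e-07), the smallest adjusted p of all genes tested. Its near-identical neighbour SLC2A14, whose reads can be mistaken for those of SLC2A3, was at 0.57 and 15.6 RPKM.

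Within the pathway the isozymes did not move alike. HK2, the hexokinase of many tumours, lay at 5.5, 5.499 and 5.88 RPKM in NT1 and 50.7, 47.4 and 50.1 RPKM in PRKCI_KD, without overlap and with little spread (2.93), whereas HK1 was at 10.4 and 11.1 RPKM and did not pass. Glucose-6-phosphate isomerase (GPI) was at 68.98, 66.6 and 56.4 RPKM in NT1 and 530.4, 474 and 444 RPKM in PRKCI_KD (2.9, SE 0.10, adjusted p = 5.55e-06). The mean of GPI in PRKCI_KD was 7.54 times that in NT1. Of the phosphofructokinases PFKP rose (16.6 and 28.1 RPKM, 0.73), and PFKL (0.28) and PFKM (-0.05) did not pass. PFKFB4, which makes and breaks the activator fructose-2,6-bisphosphate, lay at 2.07, 2.35 and 1.88 RPKM in NT1 and 29, 26.9 and 26.3 RPKM in PRKCI_KD, a change of 3.2, beside 0.3 for PFKFB3. Aldolase A (ALDOA) was at 101, 93.7 and 76.5 RPKM in NT1 and 680.0, 592 and 538 RPKM in PRKCI_KD (2.73). For HK2, GPI, PFKFB4 and ALDOA the knockdown values were several times the highest control value.

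Most enzymes of the later steps rose as well. GAPDH lay at 1314, 1247 and 1085 RPKM in NT1 and 3153, 2928 and 2697 RPKM in PRKCI_KD (1.27, adjusted p = 0.000213), the largest rise in mean RPKM after that of RP5-940J5.9, a locus listed beside it. PGK1 (72.7 and 291 RPKM, 1.99), TPI1 (0.59), PGAM1 (0.88) and ENO1 (342 and 612 RPKM, 0.84) also rose. Among the enolases ENO2, the neuronal form, rose from 9.23 ± 0.829 to 61.2 ± 2.35 RPKM (2.61), while ENO3, the muscle form, fell from 25.5 ± 3.62 to 18.7 ± 1.93 RPKM (-0.43). The call of ENO3 was lost without NT1 replicates 1 or 2 or PRKCI_KD replicates 2 or 3 (adjusted p between 0.0535 and 0.0742). BPGM, a mutase beside the main path, fell too (-0.25), and its call was lost without NT1 replicates 2 or 3 or PRKCI_KD replicates 1, 2 or 3 (adjusted p between 0.0805 and 0.143). PKM, the pyruvate kinase, was at 216 and 245 RPKM and did not pass. Summed over the 21 members, the level was 2213 to 2558 RPKM in the NT1 libraries and 5594 to 6420 RPKM in those of PRKCI_KD.

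**Figure D2:**
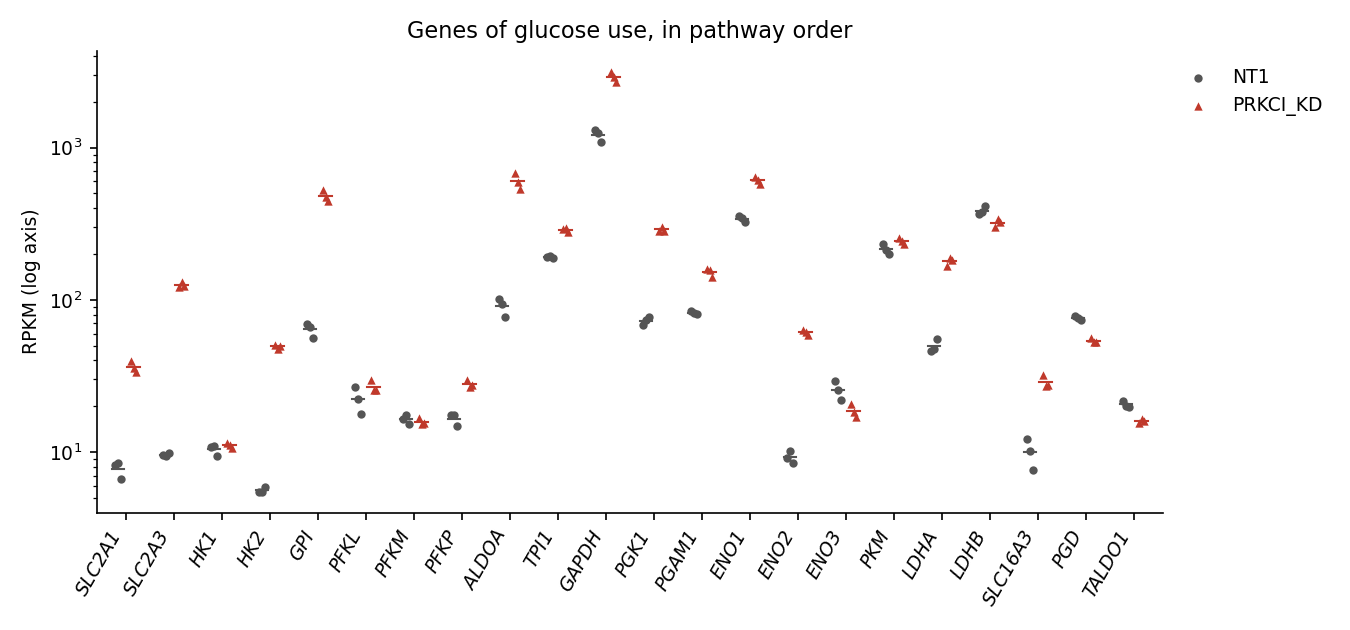
RPKM on a log axis for genes of glucose use in pathway order, with grey circles for the 3 NT1 libraries, red triangles for the 3 PRKCI_KD libraries and a short line at each mean. SLC2A3, HK2, GPI, ALDOA and ENO2 are several times higher in every knockdown library, while HK1, PFKL, PFKM and PKM sit close to their controls and PGD and TALDO1 lie lower.

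Branches off glycolysis held rises and falls. Of 8 genes of the pentose phosphate pathway none rose and 3 fell, among them PGD (-0.49) and TALDO1 (-0.34), with a list median of -0.20. Of 17 genes of pyruvate and lactate handling 7 rose and 4 fell (median 0.17); with no level rule 4 rose, and with a library left out 2 to 4 fell. Lactate dehydrogenase LDHA lay at 46.3, 47.6 and 55 RPKM in NT1 and 168, 189 and 182 RPKM in PRKCI_KD, a rise of 1.84, and the LDHB subunit fell from 386 ± 23.8 to 322 ± 19.5 RPKM (-0.26). The call of LDHB was lost without NT1 replicates 2 or 3 or PRKCI_KD replicates 1, 2 or 3 (adjusted p between 0.0569 and 0.121). The lactate exporter SLC16A3 rose (9.97 and 28.9 RPKM, 1.46). PDK1 (0.482 and 2.57 RPKM, 1.27) and PDK3 (1.01), kinases that switch off pyruvate dehydrogenase, rose; PDK2 (-0.65) and the phosphatase gene PDP1 (from 37.03 ± 4.48 to 18.4 ± 0.719 RPKM, -0.97) fell. Of 18 glycogen genes 5 rose and 3 fell (median 0.01; 5 fell with all 12 libraries), with a rise of the synthase GYS1 (0.9) and the branching enzyme GBE1 (1.15) and a fall of the phosphorylase PYGB (-0.65).

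Genes known to be induced by low oxygen rose together. Of 28 tested members outside glycolysis 26 rose, 18 of them at least 2-fold, and 2 fell, with a median of 1.22. VEGFA, an angiogenic growth factor, lay at 1.78, 1.96 and 1.802 RPKM in NT1 and 16.97, 15.8 and 16.6 RPKM in PRKCI_KD (2.62). The mitophagy receptor BNIP3 lay at 4.704, 4.96 and 4.48 RPKM in NT1 and 28.8, 31.8 and 29.1 RPKM in PRKCI_KD (2.43), and its relative BNIP3L rose from 21.1 ± 1.59 to 58.1 ± 3.63 RPKM (1.42). NDRG1 (0.637 and 6.52 RPKM, 2.2), the lipase inhibitor ANGPTL4 (5.41 and 27.7 RPKM, 2.16), the carbonic anhydrase CA9 (1.29 and 6.705 RPKM, 1.77) and the histone demethylase KDM3A (7.46 and 21.5 RPKM, 1.42) were each higher in all 3 knockdown libraries than in any control. The 2 members that fell were the repressor BHLHE41 (-0.39), beside a rise of its relative BHLHE40 (1.48), and the creatine transporter SLC6A8 (-0.33), whose call was lost without NT1 replicates 1 or 2 or PRKCI_KD replicates 2 or 3 (adjusted p between 0.0554 and 0.0695). ACGTG occurred in 70.8% of the 24 promoter windows matched for this list and in 36.8% of the 19 windows of the glycolysis list. Among the 10441 windows matched for all genes tested the share was 23.6%. For GCGTG the shares were 58.3%, 36.8% and 45.8%. The windows of the ATF6 and XBP1 targets described below held ACGTG in 46.7% and GCGTG in 60%, so these motifs were not particular to the hypoxia list.

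Genes of oxygen sensing and of the subunits of hypoxia-inducible factors moved in both directions. Transcript of HIF1A, the oxygen-regulated subunit, lay at 36.8, 36.04 and 38.2 RPKM in NT1 and 22.5, 23.7 and 24.2 RPKM in PRKCI_KD, a fall of -0.63 (adjusted p = 0.000332). Its partner ARNT (0.34), the ubiquitin ligase subunit VHL (0.38) and the prolyl hydroxylase EGLN1 (from 6.603 ± 0.521 to 16 ± 0.806 RPKM, 1.16) rose, and the asparaginyl hydroxylase HIF1AN fell (-0.19). The call of HIF1AN was lost without NT1 replicates 1 or 2 or PRKCI_KD replicates 1, 2 or 3 (adjusted p between 0.0504 and 0.113), and under either scaling. In all, 4 of 7 tested members rose and 2 fell, and EPAS1 and EGLN3 were below the level rule. HIF1A-AS2, an antisense RNA of the HIF1A locus, lay at 0.016, 0.335 and 0.115 RPKM in NT1 and 13.5, 15.6 and 15.04 RPKM in PRKCI_KD, so that it was near 0 in the controls and similar in all knockdown libraries (3.77). HIF1A-AS1, listed on the other side of HIF1A, fell (-0.62), and SNAPC1, listed 2 rows past HIF1A-AS2, rose (6.46 and 20.3 RPKM, 1.52).

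Some of the largest changes belonged to clone-named loci listed next to a gene that moved the same way. The library kit did not mark strand, so where such a locus overlaps its neighbour their reads cannot be told apart. Neighbours were taken by their order in the deposited table, and overlap was not checked. RP1-261G23.7, listed next to VEGFA, lay at 5.92, 6.63 and 6.804 RPKM in NT1 and 102, 96.6 and 109 RPKM in PRKCI_KD (3.8). RP11-841O20.2, next to ERO1L, rose by 2.88, RP11-618P17.4, next to GPI, by 2.77, RP11-344N10.2, 2 rows from P4HA1, by 3.44, and RP5-940J5.9, next to GAPDH, by 1.28. Beside HERPUD1, RP11-325K4.3 and RP11-325K4.2 rose (2.03 and 1.91). The same held for a fall: RP11-342D11.2 (7.48 and 1.25 RPKM, -1.91) is listed next to NRP1 (-1.65), and AC026956.1 (-1.67) next to MEX3B (-1.0). ALDOAP2, a pseudogene of ALDOA that shares sequence with it, rose to 2.0 RPKM from under 0.5 RPKM in every control library.

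Several microRNA loci were among the changed genes, and the mature sequences they encode are given because each carries a distinct seed (bases 2 to 8, in capitals). The values are reads of long-RNA libraries at the hairpin, not levels of the mature microRNA.
hsa-miR-210-3p (chr11:568112-568133, minus strand): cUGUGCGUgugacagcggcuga
hsa-miR-27a-3p (chr19:13836447-13836467, minus strand): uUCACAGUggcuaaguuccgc
hsa-miR-23a-3p (chr19:13836595-13836615, minus strand): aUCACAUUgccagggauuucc
The locus MIR210, known as a microRNA induced by low oxygen, lay at 0.833, 0.19 and 0.552 RPKM in NT1 and 4.81, 5.98 and 2.16 RPKM in PRKCI_KD (1.75, adjusted p = 0.00321), and its host transcript MIR210HG rose from 0.282 ± 0.091 to 4.099 ± 0.235 RPKM (1.99). MIR210 rested on few reads, between 2 and 63 per library, and PRKCI_KD replicate 3 was well below the other knockdown libraries. The neighbouring loci MIR23A (2.09 and 13.9 RPKM, 2.27), MIR27A (1.42 and 16.1 RPKM, 2.91) and MIR24-2 (4.11 and 22.7 RPKM, 2.21) rose together with the clone-named locus CTD-3252C9.4 beside them (1.31). MIR27A, at 2.13, 1.87 and 0.258 RPKM in NT1, rested on 2 to 139 reads per library, and MIR23A on 12 to 103. The seeds of miR-23a-3p and miR-27a-3p share their first 5 letters, UCACA, and their last, and the seed of miR-210-3p is unlike both.

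Among enzymes that modify collagen, those that hydroxylate its proline and lysine were raised most. Of 22 tested members 11 rose, 4 of them at least 2-fold, and 1 fell, with a median of 0.16; 2 fell without NT1 replicate 3 or with all 12 libraries of the series. P4HA1, the catalytic subunit of collagen prolyl 4-hydroxylase, lay at 14.2, 16.1 and 17.3 RPKM in NT1 and 159, 179.8 and 177 RPKM in PRKCI_KD (3.36, SE 0.09, adjusted p = 1.57e-06), and P4HB, the other subunit and also protein disulfide isomerase, rose from 125 ± 11.6 to 263 ± 15.9 RPKM (1.07). The lysyl hydroxylases PLOD2 (7.34 and 37.2 RPKM, 2.2) and PLOD1 (20.7 and 56.5 RPKM, 1.41) rose, and PLOD3 (-0.09) did not pass. The cross-linking oxidases differed: LOX rose (0.819 and 2.39 RPKM, 0.9), and LOXL1 fell from 29.6 ± 6.02 to 10.1 ± 1.03 RPKM (-1.44). Of 23 collagen chains and matrix glycoproteins 5 rose and 9 fell (median -0.15), and the falls included fibronectin (FN1), which lay at 27.6, 25.9 and 27.4 RPKM in NT1 and 9.04, 7.66 and 8.54 RPKM in PRKCI_KD (-1.57), the adhesion protein TGFBI (from 51.9 ± 5.11 to 22.6 ± 1.39 RPKM, -1.16) and the proteoglycan VCAN (-1.09). HSPG2, which encodes perlecan, rose (0.64), a call that was lost without the level rule (adjusted p = 0.0607).

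Genes of the endoplasmic reticulum and of the response to unfolded protein were mostly higher. Of 33 targets ascribed to ATF6 and XBP1 19 rose, 5 of them at least 2-fold, and 2 fell, with a median of 0.29; without NT1 replicate 3 there were 4 falls. The chaperone HSPA5, known as BiP, lay at 118, 116 and 122 RPKM in NT1 and 426, 444 and 433 RPKM in PRKCI_KD (1.86, adjusted p = 4.79e-06), and HSP90B1, known as GRP94, rose from 157 ± 13.4 to 357 ± 23.3 RPKM (1.18). The oxidase ERO1L, which drives disulfide formation, lay at 9.05, 9.81 and 10.9 RPKM in NT1 and 89.2, 98.4 and 98.5 RPKM in PRKCI_KD (3.14), well apart in both groups, whereas its relative ERO1LB was at 2.24 and 1.75 RPKM and did not pass. HERPUD1 (1.6) and DNAJB9 (1.24) rose, and so did the sensor ATF6 (0.48) and the factor XBP1 (0.81). Calreticulin (CALR, 275 and 296 RPKM, 0.11), PDIA4 (0.14) and DNAJB11 (0.02) did not pass, and CRELD2 (-0.46) and EDEM2 (-0.63) fell. The full stress element occurred in 23.3% of the 30 windows matched for this list and in 0.134% of those of all genes tested.

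The targets of the kinase PERK and the factor ATF4 rose almost throughout. Of 18 tested members 16 rose, 9 of them at least 2-fold, and none fell, with a median of 1.02. TRIB3, a pseudokinase, lay at 4.799, 4.399 and 4.52 RPKM in NT1 and 31.9, 30.9 and 29.2 RPKM in PRKCI_KD (2.51), with knockdown values over 6 times every control. The factors ATF3 (0.901 and 7.42 RPKM, 2.15) and DDIT3, known as CHOP (10.1 and 30.01 RPKM, 1.48), rose, and ATF4 itself rose from 50.5 ± 1.09 to 70.97 ± 4.76 RPKM (0.48). SESN2 (5.35 and 16.3 RPKM, 1.44), CHAC1 (1.07) and CEBPB (1.0) rose, and ATF5 was at 16.8 and 16.8 RPKM and did not pass. Some members, such as STC2, stand in more than 1 list.

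Amino acid supply was raised in parts. Of 14 transporters 10 rose and none fell (median 0.41); the pair that forms the large neutral amino acid exchanger, SLC7A5 (from 14.8 ± 2.13 to 37.6 ± 3.85 RPKM, 1.29) and SLC3A2 (from 17.4 ± 1.35 to 40.3 ± 2.74 RPKM, 1.16), rose most. Of 21 genes of amino acid synthesis and one-carbon units 9 rose and 3 fell (median 0.14). Asparagine synthetase (ASNS) lay at 13.6, 13.4 and 16.5 RPKM in NT1 and 39.7, 43.5 and 41.6 RPKM in PRKCI_KD (1.46), the only member that rose at least 2-fold. In the folate branches the mitochondrial enzymes SHMT2 (0.3) and MTHFD1L (0.42) rose, and the cytosolic enzymes SHMT1 (from 5.37 ± 0.128 to 3.096 ± 0.022 RPKM, -0.64) and MTHFD1 (from 15.4 ± 0.786 to 8.96 ± 0.063 RPKM, -0.72) fell.

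Cytosolic and mitochondrial aminoacyl-tRNA synthetases were counted apart, and the difference between them was not tested. Of 19 cytosolic synthetases 9 rose and 2 fell (median 0.19), with AARS (from 51.97 ± 0.908 to 87.9 ± 3.002 RPKM, 0.75), GARS (from 40.02 ± 2.27 to 67.96 ± 1.28 RPKM, 0.75) and DARS (0.7) the highest. Of 16 mitochondrial synthetases none rose and 6 fell (median -0.11), among them LARS2 (from 6.37 ± 0.095 to 3.65 ± 0.218 RPKM, -0.66) and AARS2 (-0.59). For alanine the cytosolic enzyme rose and the mitochondrial enzyme fell. With any library left out, 7 to 11 cytosolic synthetases rose and 4 to 7 mitochondrial ones fell; under either scaling 4 mitochondrial ones fell.

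Genes known to be induced by interferon were higher as a group. Of 42 tested effectors 40 rose, 14 of them at least 2-fold, and none fell, with a median of 0.64; GBP2 (0.18) and GBP3 (0.09) did not pass. The membrane protein IFITM1 lay at 4.697, 4.74 and 5.09 RPKM in NT1 and 38.96, 40.3 and 36.1 RPKM in PRKCI_KD (2.75, adjusted p = 1.44e-06), and its relatives IFITM2 (12.1 and 33.2 RPKM, 1.37) and IFITM3 (58.1 and 126 RPKM, 1.1) rose less in ratio. IFI6 was at 57.96, 63.3 and 54.9 RPKM in NT1 and 285, 263 and 243 RPKM in PRKCI_KD (2.15), the highest level in the list in PRKCI_KD. The RNA-binding IFIT1 (3.996 and 20.8 RPKM, 2.14), the ubiquitin-like modifier ISG15 (35.9 and 109.9 RPKM, 1.59), the tetherin gene BST2 (2.36 and 11.8 RPKM, 1.95) and the 2-5A synthetases OAS1 (0.437 and 3.48 RPKM, 1.64), OAS2 (0.353 and 3.87 RPKM, 1.85) and OAS3 (7.08 and 21.02 RPKM, 1.45) rose. MX1, a classical member, was among the 40 that rose but reached no more than 0.698 RPKM. MX2, RSAD2, CMPK2 and EPSTI1 were below the level rule.

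Genes upstream of these effectors changed in both directions. Of 23 sensors and signalling genes 11 rose and 3 fell (median 0.27). The cytosolic RNA sensors DDX58, known as RIG-I (from 8.701 ± 1.06 to 21.3 ± 1.21 RPKM, 1.2), and IFIH1, known as MDA5 (from 11.4 ± 1.06 to 23.9 ± 1.62 RPKM, 1.01), and the brake USP18 (1.05) rose at least 2-fold. Their adaptor MAVS (-0.5), the receptor subunit IFNAR1 (-0.36) and the inhibitor SOCS1 (-0.7) fell. The interferon genes IFNB1 and IFNL1 were below the level rule, with means of 0.016 and 0.039 RPKM in NT1 and 0.013 and 0.072 RPKM in PRKCI_KD. Class I antigen presentation was open to view only in part, since 11 of 20 listed genes had no single name; of the 9 tested, TAPBPL and ERAP1 rose (0.42 and 0.34) and PSME2 fell (-0.26), a call that was lost without PRKCI_KD replicates 1 or 3 (adjusted p between 0.0501 and 0.0568). The interferon-stimulated response element occurred in 59.4% of the 32 windows matched for the effectors and in 2.18% of those of all genes tested.

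Genes of chromosome segregation and cytokinesis were lower in PRKCI_KD. Of 52 tested genes of the kinetochore, spindle and cytokinesis none rose and 51 fell, 12 of them at least 2-fold, with a median of -0.89, and only BUB3 (-0.14) did not pass. Topoisomerase 2-alpha (TOP2A) lay at 36.4, 45.2 and 57.3 RPKM in NT1 and 17.3, 18.6 and 19.1 RPKM in PRKCI_KD (-1.27, adjusted p = 0.000737), so that even the highest knockdown value was far below the lowest control. BIRC5, known as survivin (from 22.2 ± 3.49 to 8.699 ± 0.344 RPKM, -1.25), the spindle protein TPX2 (from 91.3 ± 13.8 to 38.6 ± 1.05 RPKM, -1.21), the kinase PLK1 (-1.12) and the kinetochore protein NDC80 (-1.17) fell by similar amounts. TTTGAA occurred in 47.7% of the 44 windows matched for this list and in 8.23% of those of all genes tested. In these bulk libraries fewer dividing cells and less of a transcript per cell cannot be told apart.

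Most replication genes fell. Of 52 tested members none rose and 42 fell, 10 of them at least 2-fold, with a median of -0.66. GINS2, a subunit of the replicative helicase, lay at 8.504, 8.08 and 9.57 RPKM in NT1 and 2.69, 2.83 and 2.73 RPKM in PRKCI_KD (-1.37), and the helicase loaders and subunits CDC45 (-1.23), MCM2 (from 28.2 ± 2.59 to 11.7 ± 0.584 RPKM, -1.19), MCM5 (-1.11) and MCM6 (-1.1) and the sliding clamp PCNA (from 45.2 ± 5.6 to 19.7 ± 1.14 RPKM, -1.15) also fell at least 2-fold. Of the 10 members that did not pass, 4 were origin recognition subunits, ORC2 to ORC5 (-0.18 to 0.09), while ORC1 fell from 5.22 ± 0.43 to 2.21 ± 0.02 RPKM (-0.95). Of 25 genes of nucleotide synthesis 17 fell and 1 rose (median -0.37; 4 rose without NT1 replicate 3): the ribonucleotide reductase subunit RRM2 (from 30.3 ± 5.39 to 10.8 ± 0.298 RPKM, -1.4), the kinase TK1 (-1.28) and TYMS (-1.14) were among those that fell at least 2-fold, and IMPDH2 rose (0.24), a call that was lost without NT1 replicate 2 or PRKCI_KD replicates 1 or 2 (adjusted p between 0.0502 and 0.0648). TTTCCCGC occurred in 19.6% of the 46 windows matched for the replication genes and in 2.17% of those of all genes tested.

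Regulators of the cycle moved in both directions. Of 38 cyclins, E2F factors and inhibitors 25 fell and 5 rose (median -0.61). MYBL2 (from 32.5 ± 1.203 to 12.3 ± 1.28 RPKM, -1.33), FOXM1 (from 33.7 ± 0.693 to 14.2 ± 0.769 RPKM, -1.19) and E2F1 (-1.11), factors that drive cycle genes, and CCNA2 (-1.04) fell at least 2-fold. CCND1 fell from 94.6 ± 4.33 to 58.6 ± 0.878 RPKM (-0.68) and CCND2 rose (0.993 and 2.95 RPKM, 0.98), while CCNE1 was at 3.29 and 3.38 RPKM. The inhibitors also divided: CDKN1A, known as p21 (from 20.2 ± 1.68 to 29.1 ± 1.18 RPKM, 0.51), and CDKN1B, known as p27 (0.33), rose, and CDKN2C (-0.93) and CDKN2B (-0.83) fell. The number of rises was 3 without PRKCI_KD replicate 2 or without replicate 3.

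Most genes of recombination repair fell. Of 35 genes of homologous recombination and the Fanconi pathway none rose and 28 fell (median -0.49). The falls included EXO1 (-0.87), BRCA1 (from 4.31 ± 0.826 to 1.94 ± 0.117 RPKM, -0.85), XRCC2 (-0.84) and FANCD2 (-0.77). None fell 2-fold on the scale of log2(RPKM + 1). That scale understates the ratio of means at low levels, and the mean RPKM of BRCA1 fell by more than 2-fold. PALB2 (-0.03) and RAD50 (-0.03) did not pass.

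**Figure D3:**
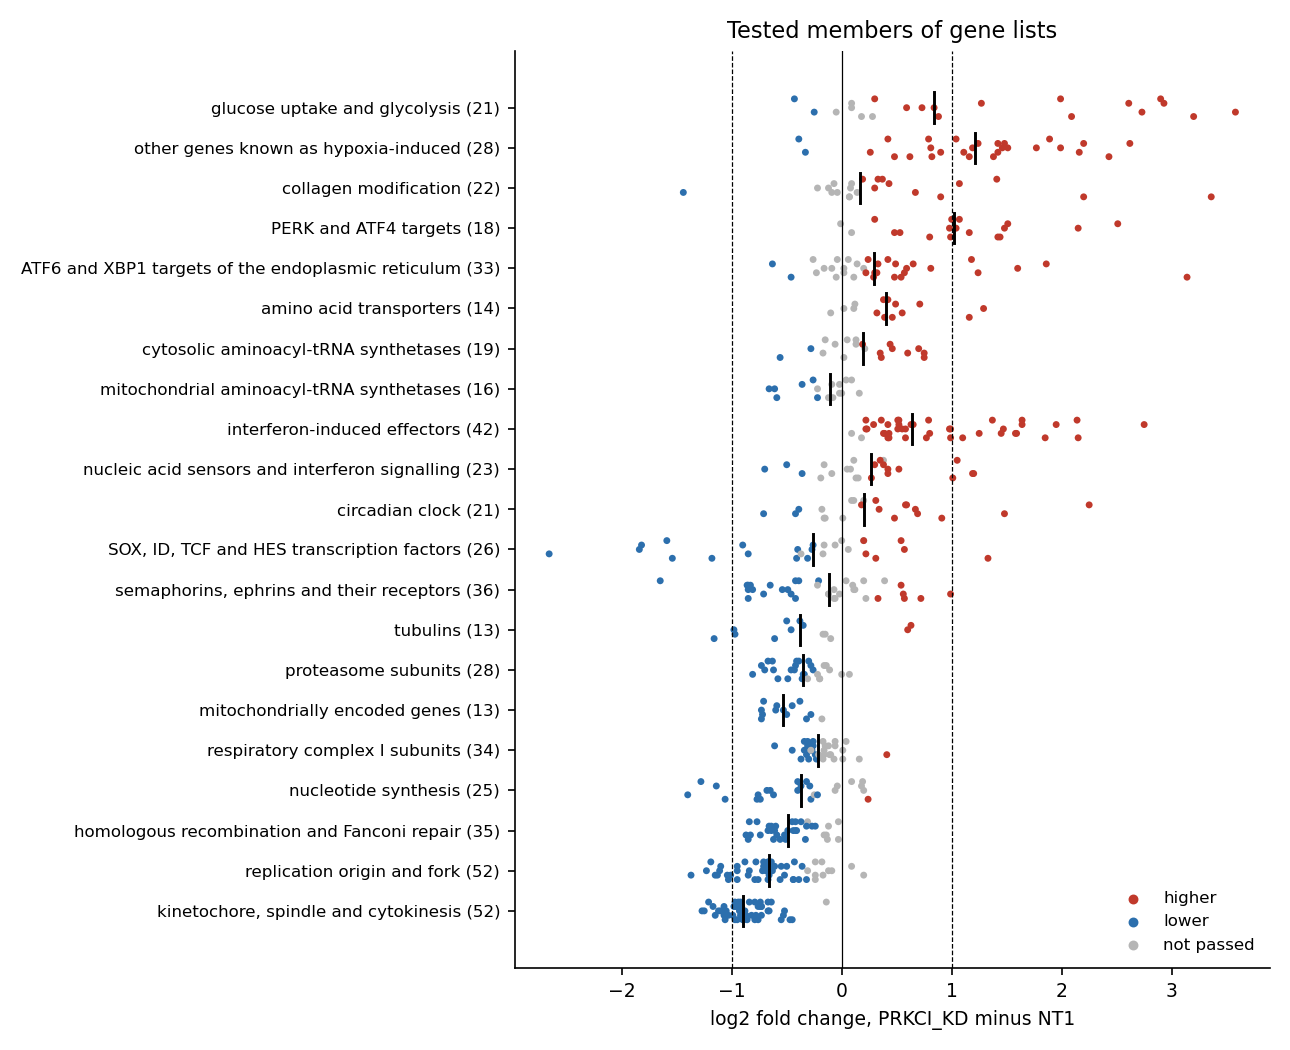
Log2 fold change, PRKCI_KD minus NT1, of the tested members of 21 gene lists, a point per gene and a black bar at the list median, with the number of members in parentheses; red points rose, blue points fell and grey points did not pass. Dashed lines mark 2-fold. Medians run from 1.22 for the hypoxia-induced genes to -0.89 for the kinetochore and spindle genes.

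Transcripts of the mitochondrial genome were mostly lower in PRKCI_KD. MT-CO1, a subunit of cytochrome oxidase, lay at 2876, 2926 and 2762 RPKM in NT1 and 1714, 1734 and 1709 RPKM in PRKCI_KD, without overlap (-0.73, adjusted p = 0.000519), and MT-ATP6 at 4337, 3814 and 3764 RPKM in NT1 and 2406, 2380.0 and 2399 RPKM in PRKCI_KD (-0.73). Of the 13 protein-coding mitochondrial genes 12 fell (median -0.53) and MT-ND1 did not pass (-0.18). Between 8 and 11 passed with any library left out, 8 with median-of-ratios scaling and none without the level rule. In the fit without the level rule MT-CO1 had an adjusted p of 0.0591, and why these calls were lost was not tested. Mitochondrially encoded entries held 13.8% to 15.1% of the summed RPKM in NT1 and 10.8% to 12.5% in PRKCI_KD. Of 34 nuclear subunits of complex I 16 fell and 1, NDUFS4 (0.41), rose (median -0.22), a rise that was lost without NT1 replicates 1 or 2 or PRKCI_KD replicates 2 or 3 (adjusted p between 0.0885 and 0.108); NDUFS6 was the lowest (from 23.5 ± 1.29 to 15.1 ± 1.32 RPKM, -0.61). That count of falls was 8 with median-of-ratios scaling and 7 without PRKCI_KD replicate 3, 10 without PRKCI_KD replicate 1 and 10 without NT1 replicate 1.

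The other respiratory complexes and the citrate cycle gave small values in both directions. Of 26 genes of complexes II to IV 5 fell and 2 rose, COX7A2L (from 14.7 ± 0.726 to 23.9 ± 1.61 RPKM, 0.67) and COX7C (from 51.1 ± 3.97 to 81.3 ± 8.85 RPKM, 0.66), with a median of -0.06; none of the 5 falls held with median-of-ratios scaling, and 0 to 3 passed with a library left out. Of 16 ATP synthase genes 6 fell and none rose (median -0.26), with ATP5G1 the lowest (-0.57); 3 fell without PRKCI_KD replicate 1. Of 23 citrate cycle genes 9 fell, 5 without the level rule, and 3 rose (median -0.17): FH (-0.58), DLD (-0.57) and CS (-0.34) fell, and SUCLG2 (0.43) rose; 1 to 3 rose with a library left out. The isoform gene COX4I2 was near 0 in both groups, and NDUFA4L2 (0.09) did not pass.

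Proteasome genes were mostly lower. Of 28 proteasome subunits none rose and 19 fell (median -0.35), led by PSMB2 (from 31 ± 0.867 to 17.3 ± 0.478 RPKM, -0.81), PSMC3 (-0.73) and PSMD1 (-0.7). Of 24 cytosolic heat shock genes 3 rose and 10 fell (median -0.12). CLU, which encodes the extracellular chaperone clusterin, lay at 28.1, 30.4 and 26.7 RPKM in NT1 and 5.59, 5.81 and 5.18 RPKM in PRKCI_KD (-2.17, adjusted p = 4.74e-06), and HSPH1 (from 33.96 ± 5.73 to 19.05 ± 1.47 RPKM, -0.79) and HSP90AA1 (from 464 ± 96.6 to 304 ± 23.6 RPKM, -0.59) fell, while HSPB1 rose (0.54), a call that was lost without NT1 replicate 2 or PRKCI_KD replicates 1 or 2 (adjusted p between 0.0652 and 0.0925). The count of falls was 5 without PRKCI_KD replicate 1 and 6 without replicate 3, and 1 to 4 rose with a library left out. Of 39 genes of autophagy 9 rose and 4 fell (median 0.02), with 0 to 5 falls when a library was left out and 1 under either scaling; beside BNIP3 and BNIP3L, the rises of ATG101 (0.55), MAP1LC3B (from 32.9 ± 1.698 to 49.5 ± 2.42 RPKM, 0.58) and OPTN (0.55) were under 2-fold, and ULK1, ATG5 and ATG7 did not pass.

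Among regulators of the growth kinase complex mTORC1, a few inhibitors moved far. DDIT4, known as REDD1, lay at 21.9, 25.2 and 20.7 RPKM in NT1 and 91.3, 85.5 and 82.5 RPKM in PRKCI_KD (1.89), with each knockdown value well above the controls, and SESN2 rose as given above. DEPTOR fell from 4.46 ± 0.651 to 1.45 ± 0.162 RPKM (-1.15). RRAGD rose (0.9) and RPTOR fell (-0.46), and MTOR itself (-0.22) did not pass. Of 28 members 6 rose and 7 fell (median -0.13), with 4 falls under either scaling or without PRKCI_KD replicate 2.

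In the circadian clock list 2 members, PER1 and BHLHE40, rose at least 2-fold. PER1 lay at 5.88, 5.299 and 4.12 RPKM in NT1 and 30.6, 27.2 and 26.1 RPKM in PRKCI_KD (2.25, adjusted p = 3.09e-05), and the other members that rose did so by 0.18 (CIART) to 1.48 (BHLHE40), among them CRY1 (0.69), CRY2 (0.67) and NFIL3 (0.91). The call of CIART was lost without NT1 replicates 1 or 2 or PRKCI_KD replicates 1, 2 or 3 (adjusted p between 0.0923 and 0.151). In all 11 of 21 rose and 3 fell (median 0.20), the falls being ARNTL2 (-0.42), RORB (-0.71) and BHLHE41; the activators ARNTL (-0.15) and CLOCK (-0.18) did not pass. Of 24 JmjC demethylases and TET enzymes 7 rose and 7 fell (median -0.05): KDM3A, KDM4B (1.04) and KDM7A (0.84) rose, and KDM2B (-0.57), TET1 (-0.45) and TET3 (-0.41) fell.

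Genes of the polarity complexes around PRKCI changed in numbers near the shares over all genes. Of 27 tested polarity genes 6 rose and 6 fell, PRKCI included, with a median of -0.03. Over all genes tested 15.9% were higher and 24.2% lower. CDC42 lay at 81.8, 80.3 and 92.9 RPKM in NT1 and 45.9, 52.8 and 50.4 RPKM in PRKCI_KD (-0.76), DLG3 fell (-0.5), and PARD3 rose from 7.46 ± 0.346 to 9.504 ± 0.04 RPKM (0.31). PARD6A (0.15) and PARD6B (0.09) did not pass. The angiomotin genes went apart: AMOTL2 rose from 5.48 ± 0.254 to 14.98 ± 1.21 RPKM (1.3), AMOTL1 fell from 13.3 ± 1.04 to 6.96 ± 0.385 RPKM (-0.84), and AMOT was at 4.94 and 4.98 RPKM. The small GTPase gene RHOB lay at 40.8, 40.8 and 36.2 RPKM in NT1 and 109, 103 and 97.1 RPKM in PRKCI_KD (1.37), CDC42EP1 (1.1) and RHOV (1.08) rose at least 2-fold, PAK4 (-0.62) and DIAPH3 (-0.67) fell, and RAC1 (0.1), ROCK1 and ROCK2 did not pass.

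Cytoskeleton and adhesion genes varied member by member. Of 13 tubulins 8 fell and 2 rose (median -0.38); TUBA1A lay at 126, 119 and 134 RPKM in NT1 and 56, 58.7 and 53.1 RPKM in PRKCI_KD (-1.16), TUBA1B (-0.97) and TUBA1C (-0.98) fell almost as far, and TUBA4A (0.413 and 1.19 RPKM, 0.63) and TUBE1 (0.6) rose. The alpha-tubulin genes are near-identical in sequence, so reads can be exchanged among them. Of 21 integrins and laminins 9 rose and 6 fell (median 0.19). The laminin chain LAMB3 rose (from 16.9 ± 2.76 to 37.8 ± 3.12 RPKM, 1.12) and LAMB1 fell from 28.8 ± 0.742 to 12.7 ± 0.278 RPKM (-1.12), and ITGA10 rose (2.61 and 9.22 RPKM, 1.51) where ITGA1 fell (-0.88). FERMT1, which encodes the integrin activator kindlin-1, lay at 12.5, 10.6 and 12.4 RPKM in NT1 and 3.48, 3.28 and 3.32 RPKM in PRKCI_KD (-1.55).

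A guidance receptor was among the deepest falls. NRP1, a co-receptor of semaphorins and of VEGF, lay at 3.99, 4.43 and 4.55 RPKM in NT1 and 0.668, 0.665 and 0.768 RPKM in PRKCI_KD, so that all knockdown values were below 0.8 RPKM (-1.65, adjusted p = 1.09e-05). Of 36 semaphorins, ephrins and receptors 6 rose and 16 fell (median -0.12). The ligands SEMA3A (from 13.8 ± 0.378 to 7.22 ± 0.356 RPKM, -0.85), SEMA3C (from 24.1 ± 1.06 to 12.96 ± 0.098 RPKM, -0.85) and SEMA3D (-0.86) and the receptors PLXNB1 (-0.85) and EPHA3 (-0.71) fell, and SEMA4B (from 9.86 ± 1.52 to 20.5 ± 2.21 RPKM, 0.99) and SEMA3F (0.72) rose. Of 9 ERBB receptors and ligands 3 rose and 1 fell (median 0.06): the ligands TGFA (from 2.15 ± 0.205 to 4.996 ± 0.087 RPKM, 0.93) and HBEGF (0.66) and the receptor ERBB3 (0.5) rose, the feedback inhibitor ERRFI1 fell (-0.4), and EGFR was at 5.73 and 6.19 RPKM.

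A transcription factor had the lowest log2 change of all genes tested. SOX4, a factor of progenitor cells, lay at 52.8, 43.9 and 60.7 RPKM in NT1 and 7.07, 7.47 and 7.64 RPKM in PRKCI_KD, a change of -2.66 (SE 0.11, adjusted p = 1.12e-05), and its NT1 mean was 7.099 times that of PRKCI_KD. Of 26 SOX, ID, TCF and HES genes 13 fell, 6 of them at least 2-fold, and 6 rose (median -0.27); the rises numbered 3 without PRKCI_KD replicate 2, without replicate 3 or without the level rule. The inhibitors of differentiation ID1, at 55.3, 49.4 and 44.6 RPKM in NT1 and 14.6, 13.4 and 12.1 RPKM in PRKCI_KD (-1.82), ID2 (from 5.71 ± 0.651 to 1.22 ± 0.028 RPKM, -1.59) and ID3 (from 29.5 ± 3.99 to 9.43 ± 0.712 RPKM, -1.54) fell in every knockdown library below every control, and ID4 rose at a low level (0.576 and 0.832 RPKM, 0.22). The call of ID4 was lost without NT1 replicates 1 or 2 or PRKCI_KD replicates 2 or 3 (adjusted p between 0.0721 and 0.0966). TCF7, which carries Wnt signals to the genome, lay at 6.93, 7.04 and 6.43 RPKM in NT1 and 1.26, 1.15 and 1.14 RPKM in PRKCI_KD (-1.84), and the Wnt feedback gene AXIN2 at 7.83, 7.62 and 7.78 RPKM in NT1 and 2.31, 1.91 and 2.25 RPKM in PRKCI_KD (-1.47), while TCF7L1 (-0.16) and TCF7L2 (0.0) did not pass. LEF1 (-1.18) and SOX2 (-0.41) fell too. No single gene length tried made whole reads of their values in all 12 libraries of the series. At the best fitting length, however, their values in the 6 libraries compared here were whole reads. The lack of a length that fits all 12 libraries occurred in 23 genes, of which 17 were tested here. Of these 16 fell, none rose and HEY1 (-0.06) did not pass, where 24.2% of all genes tested were lower. Among the 23 genes, 11 had a fraction of a read in an NT1 library and 5 in a PRKCI_KD library. Such fractions numbered 27 in NT1 and 11 in PRKCI_KD, and their bearing on the falls was not tested. HES4 rose from 4.09 ± 0.313 to 11.8 ± 1.38 RPKM (1.33) and HES6 fell (-0.85).

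**Figure D4:**
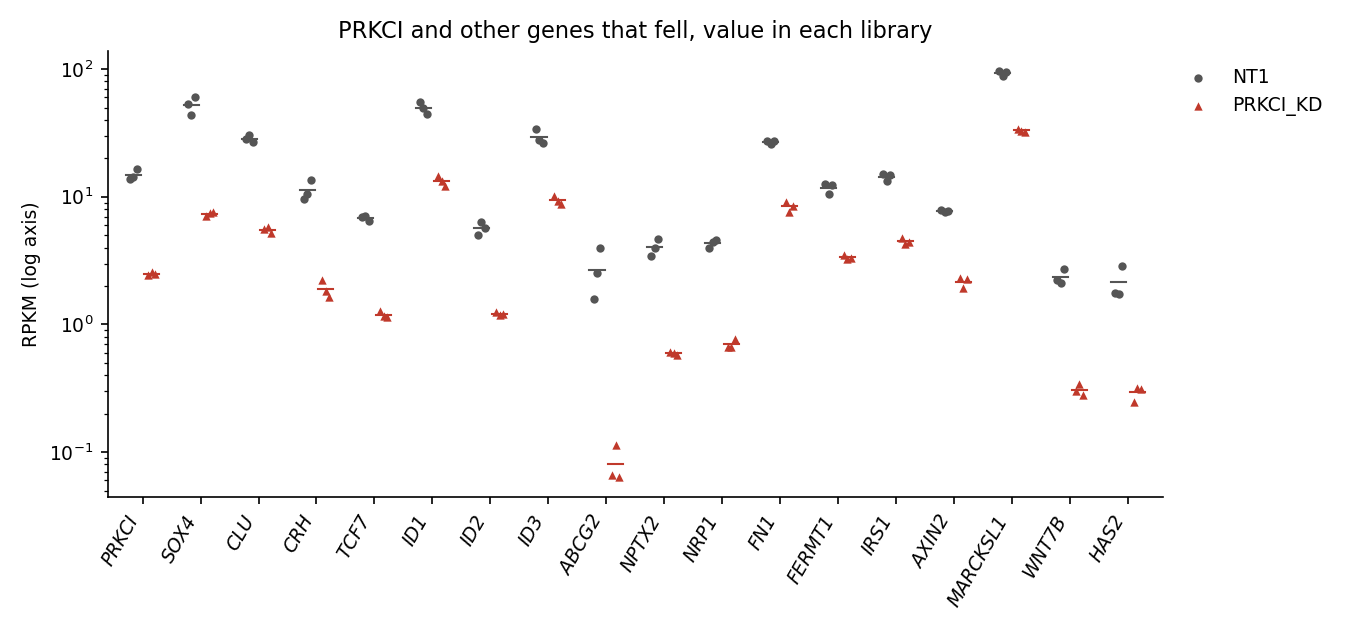
RPKM on a log axis in each library for PRKCI and 17 other genes that fell, with grey circles for NT1, red triangles for PRKCI_KD and a short line at each mean. The groups do not overlap for any of these genes; the NT1 libraries spread widely for ABCG2 (1.57 to 3.94 RPKM) and closely for AXIN2 (7.62 to 7.83 RPKM).

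Other genes among the lowest changes belonged to no single list. CRH, the corticotropin-releasing hormone, lay at 9.54, 10.6 and 13.6 RPKM in NT1 and 2.22, 1.82 and 1.64 RPKM in PRKCI_KD (-2.07), and the neuronal pentraxins NPTX2 (from 4.03 ± 0.631 to 0.593 ± 0.018 RPKM, -1.65) and NPTX1 (from 7.19 ± 2.16 to 1.9 ± 0.075 RPKM, -1.47) fell. IRS1, the docking protein of the insulin receptor, lay at 15.04, 13.4 and 14.7 RPKM in NT1 and 4.74, 4.26 and 4.41 RPKM in PRKCI_KD (-1.49), without overlap. The gene MARCKSL1, a relative of the protein kinase C substrate MARCKS (from 93.3 ± 4.62 to 33.1 ± 0.833 RPKM, -1.47) and the acyltransferase gene AGPAT9 (from 23.6 ± 4.19 to 7.74 ± 0.337 RPKM, -1.48) also fell. ABCG2, a drug exporter, lay at 1.57, 2.53 and 3.94 RPKM in NT1 and 0.066, 0.113 and 0.064 RPKM in PRKCI_KD (-1.72), and its control libraries differed more among themselves than its knockdown libraries did.

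At the other end, FOS had the highest log2 change of all genes tested. FOS lay at 1.18, 1.26 and 4.39 RPKM in NT1 and 45.2, 43.8 and 41.4 RPKM in PRKCI_KD and FOSB at 0.763, 0.81 and 1.75 RPKM in NT1 and 22.2, 19.9 and 20.3 RPKM in PRKCI_KD; both encode parts of the factor AP-1, and NT1 replicate 3 was above the other controls for each. CYR61, a matrix protein gene, showed the same order, at 3.83, 3.85 and 6.19 RPKM in NT1 and 30.1, 30.6 and 30.6 RPKM in PRKCI_KD. Even so, the lowest knockdown value of each exceeded the highest control value (3.9, 3.4 and 2.51). HMOX1, haem oxygenase, lay at 5.97, 6.82 and 6.57 RPKM in NT1 and 43.7, 40.2 and 36.8 RPKM in PRKCI_KD (2.47), while of 21 iron and haem genes 7 rose and 8 fell (median -0.06): the ferritins FTH1 (from 122 ± 15.7 to 190.3 ± 13.1 RPKM, 0.64) and FTL (0.48) and the transferrin receptor TFRC (0.57) rose, and the haem synthesis enzymes UROD (-0.44) and ALAD (-0.47) fell.

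Cell death and splicing genes showed small changes. Of 29 BCL2 family and death receptor genes 8 rose and 6 fell (median 0.07), and the falls numbered 1 under either scaling. The TRAIL receptor TNFRSF10B rose from 20.9 ± 0.712 to 37.04 ± 1.03 RPKM (0.79), the decoy receptors TNFRSF10D (0.65) and TNFRSF10C (0.5) and the BH3-only gene BMF (0.63) rose, and MCL1 (0.14) and PMAIP1 (0.13) did not pass. Without single libraries the rises numbered 5 to 10 and the falls 1 to 5. Of 34 SR proteins and hnRNPs 5 rose and 13 fell (median -0.20), with 2 to 6 rises when a library was left out, 8 with all 12 libraries and 9 with median-of-ratios scaling; HNRNPM (from 66.98 ± 3.43 to 36.8 ± 0.824 RPKM, -0.85) and SRSF1 (from 88.9 ± 12.7 to 56.1 ± 3.74 RPKM, -0.65) fell and SRSF5 rose (from 35.3 ± 1.5 to 52.4 ± 2.68 RPKM, 0.55).

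Some genes were under 0.5 RPKM in every library of a group. Among changed genes 213 were so in NT1 and 167 in PRKCI_KD. Those with the highest level in the other group, apart from genes given above, included GS1-600G8.5 (2.27), IFI44L (0.41 and 3.395 RPKM, 1.64), the prostaglandin synthase PTGDS (0.371 and 3.07 RPKM, 1.57) and the stress protein gene NUPR1 (0.402 and 2.14 RPKM, 1.16) on the side of PRKCI_KD. On the side of NT1 they included the Wnt ligand WNT7B (2.35 and 0.307 RPKM, -1.36), the hyaluronan synthase HAS2 (2.13 and 0.293 RPKM, -1.26), TMSB15A (2.72 and 0.286 RPKM, -1.51), the scavenger receptor gene SCARA3 (1.65 and 0.303 RPKM, -1.02) and FGFR2 (2.0 and 0.124 RPKM, -1.41). FGFR2 is among the 23 genes for which no single gene length tried made whole reads of the values in all 12 libraries. At its best fitting length of 7487 bases the NT1 values correspond to 2150, 1270 and 1320 reads, all multiples of 10. At that length PRKCI_KD replicate 1 corresponds to 87.969 reads. Outside this set, the 10 largest rises in mean RPKM among changed genes also held the fatty acid desaturase SCD (from 995 ± 68.8 to 1951 ± 19.01 RPKM, 0.97) and the elongation factor EEF1A1 (from 742 ± 22.6 to 1111 ± 43.7 RPKM, 0.58).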

How the data were processed

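The deposited table gives gene-level RPKM, which the authors made from paired reads of 101 bases; the processing notes of the submitters name TopHat2 2.1, Bowtie 1.1.2, featureCounts and the build GRCh38. Per the labels, each library was made from 120 ng of RNA with TruSeq v2 reagents, which keep no strand, and all 6 libraries shared lane 8 of 1 flow cell. The sources used here give no annotation and no strand setting. Entries with a repeated name or a date for a name (7091) were left out.

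Levels were tested with limma 3.58.1 (R 4.3.3; lmFit, eBayes with a trend) on log2(RPKM + 1) in the 6 libraries, with 4 residual and 3.45 prior degrees of freedom, and adjusted by the Benjamini-Hochberg method over 18307 genes. Every adjusted p comes from limma. A log2 fold change understates the ratio of means for genes at low levels. An exact permutation test of 3 libraries against 3 cannot go below p = 0.1 (two-sided). The fit was also run on simulated reads with known changes in a small share of genes and the same fixed dispersion for all genes. Because these settings differ from the real libraries, that run gives no error rate for the calls reported here. Read totals were recovered from the RPKM values, which are whole reads within 0.001 for 99.94% of the entries that could be checked; no count test was run, since the unit is RPKM.

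The members and lists were chosen with earlier results of these data known, so no list was tested and counts stand beside those of all genes. Named genes were PRKCI, the 25 highest and 25 lowest changes without overlap of the groups, the 10 largest rises and falls in mean RPKM, genes under 0.5 RPKM in every library of a group, and members of lists. Promoter and microRNA sequences come from RefSeq (GRCh38.p14), with promoters matched by symbol or synonym for 10441 of the genes tested. Alternatives were the pseudocounts 0.1 and 5, no level rule, a rule of 1 RPKM, quantile and median-of-ratios scaling, a fit of all 12 libraries, the replicate number as a block, leaving out each library and, chosen after seeing the data, leaving out the genes without whole reads. Some genes are not reported here.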

Additional observations from a re-analysis of the deposited data

How the results depend on the processing

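The number of genes called was 7342, and it lay between 6373 and 8847 under the other pseudocounts, level rules and scalings, with all 12 libraries and with the replicate number as a block, and between 5266 and 7963 with 1 library left out. Calls at least 2-fold depended on the pseudocount: with 0.1 they numbered 969 (529 higher, 440 lower) and with 5 they numbered 131 (98 higher, 33 lower), against 398 (241 and 157), since the pseudocount sets the size of a change at low levels. Without a library 235 to 253 were higher and 146 to 183 lower. PRKCI stayed lower and past the threshold under every alternative. The replicate block raised the number of calls to 8847, the rises of SR proteins and hnRNPs from 5 to 9 and the falls of collagen modification from 1 to 2. The deviations of same-numbered libraries correlated at 0.511, -0.105 and 0.362, and those of differently numbered libraries at -0.551 to 0.253. These values do not settle whether the numbers mark pairs. The main fit did not take them as pairs. Of 270 called genes named in the text besides PRKCI, 251 passed under all 15 alternatives that could be computed for them, none changed direction, and 19 lost the call under at least 1. With no level rule 16 of them did, with adjusted p from 0.0519 (FTL) to 0.129 (LDHB): BPGM, CIART, ENO3, FTL, HSP90AA1, HSPB1, HSPG2, ID4, KRT18, LDHB, MT-ATP6, MT-CO1, NDUFS4, RP5-940J5.9, SLC6A8 and VIM; the cause was not tested. Depth limits the loci with few reads, such as MIR210 and MIR27A.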
